A study of Homo sapiens with 24 samples.

Results

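Of 35 listed direct targets of the transcription factor p53, 34 were found among the 60675 gene ids of each library. Members were taken from a list of gene names, with current or older symbols matched to Ensembl gene ids. TNFRSF10D-AS1 was not matched and is not analysed here. A filter on low read numbers left 32 members for testing. GLS2 and TP53TG1 did not pass it, and SPATA18 and EDA2R passed through WT libraries only. In WT solvent SPATA18 had 14 and 0 reads and EDA2R 8 and 0, so treated WT libraries took both past the filter. Their differences between lines and their changes against WT solvent are therefore given as a description.

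The cells were HCT116, an established human colorectal cancer line, in 3 versions that differ in p53 status: wild type (WT), mutant (Mutant) and null (Null). All were grown in McCoy 5A medium with 10% FBS. The treatments were solvent, APR-246 at 20 uM, irradiation at 6 Gy, and the same irradiation after APR-246 pretreatment at 20 uM (the combination), and irradiated cells were collected after 72 hours. Every one of these 12 groups has 2 libraries of bulk mRNA, so 24 in all. The labels do not say how the lines were made or whether the replicates were separate cultures, so p-values measure only the spread between these libraries. With 1 line for each p53 status, status and line cannot be told apart. In bulk RNA, fewer cells of a kind and less RNA per cell cannot be told apart either.

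Libraries held 53184139 to 58058729 reads assigned to genes, and 3 reads correspond to 0.0517 to 0.0564 CPM (reads scaled to the same total in every library); such a floor covers counting error only. CDKN1A, the arrest gene of the p53 pathway, went from 508 and 582 CPM in WT solvent to 2253 and 2162 CPM after irradiation. In Null it was at 348 and 357 CPM in solvent and 281 and 302 CPM after irradiation. MDM2, the ligase that degrades p53, was at 49.5 and 15.4 CPM in WT solvent and 96.0 and 35.2 CPM after irradiation, and its groups overlapped. Of 8 markers of colorectal epithelium 5 reached 1 CPM in every library (KRT20, VIL1 and CDH17 did not), with summed levels of 3343 to 11496 CPM. The summed blood cell markers stayed at 0.162 to 2.80 CPM. The 6 fibroblast markers summed to 11.8 to 69.0 CPM, nearly all of it COL1A1, while DCN and LUM were at 0 in 19 and 22 libraries.

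p53 is kept low in resting cells by MDM2 and is stabilised when DNA is broken. It then binds DNA as a tetramer, at paired copies of a short half-site, and raises genes for cell cycle arrest, cell death, metabolism and its own feedback. The genes described here cover the less central branches of that output: kinases and antiproliferative factors, death effectors, mitochondrial and metabolic enzymes, RNA-acting proteins, and surface or secreted proteins. APR-246 is a small molecule developed to restore function to mutant p53; its active product binds thiol groups and also lowers glutathione.

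In RefSeq promoter windows (assembly GRCh38.p14, 250 bases before to 50 after the start site), 29 members had an entry and 7 of them, or 24.1%, held an exact match to the consensus p53 half-site on either strand. Among all 27305 genes with a window the share was 8.06%. A match is a description of letters, not evidence of binding, and no binding was measured here. The windows with a match are shown, because they include PLK2, RPS27L and ABCA12, which passed a test in WT cells, and because AEN, SLC12A4 and FDXR carry the same half-site letters. A match did not go with passing. AEN, SLC12A4, FDXR and ACTA2 held a match and did not pass the main test in WT cells. TP53I3, CD82, BTG2, PIDD1, SPATA18 and BTG1 passed after irradiation of WT and had a window without a match. Each run reads 5′ to 3′ on the gene's strand with the half-site in capitals.
PLK2 promoter, chr5:58460174-58460253, minus strand: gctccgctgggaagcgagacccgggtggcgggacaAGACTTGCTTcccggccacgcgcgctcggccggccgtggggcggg
RPS27L promoter, chr15:63157492-63157571, minus strand: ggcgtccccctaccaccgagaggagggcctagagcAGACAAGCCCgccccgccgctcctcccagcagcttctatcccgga
ABCA12 promoter, chr2:215138664-215138743, minus strand: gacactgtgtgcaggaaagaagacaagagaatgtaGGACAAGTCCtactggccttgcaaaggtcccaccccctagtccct
FDXR promoter, chr17:74872995-74873040, minus strand: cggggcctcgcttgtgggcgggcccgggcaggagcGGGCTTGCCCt
AEN promoter, chr15:88621271-88621339, plus strand: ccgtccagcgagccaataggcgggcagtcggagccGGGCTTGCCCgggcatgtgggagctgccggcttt
SLC12A4 promoter, chr16:67964077-67964156, minus strand: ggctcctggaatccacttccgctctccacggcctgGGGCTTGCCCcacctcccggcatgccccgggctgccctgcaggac
ACTA2 promoter, chr10:88991512-88991587, minus strand: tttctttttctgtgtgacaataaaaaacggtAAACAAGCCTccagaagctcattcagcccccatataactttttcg
ACTA2 around its start site, chr10:88991299-88991328, minus strand: tggcttgtcaGGGCTTGTCCaggagttccg

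The upstream half-sites lie 11 bases (FDXR) to 219 bases (ACTA2) before the start site. ACTA2 is the one member with a further match, which begins 19 bases after its start. ASCC3, TP53INP1, LIF, PHLDA3 and CMBL have no entry in the table of windows used.

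Per kilobase of exon, SFN had the highest median level over the 24 libraries, 584 CPM per kb. FDXR followed at 60.2, SERTAD1 at 39.2, PERP at 33.3 and PLK3 at 29.4 CPM per kb. ABCA12, GLS2, SPATA18, EDA2R and TP53TG1 were lowest, at 0.0189 CPM per kb or less. TP53TG1, a long noncoding RNA, was at 0 in every library but WT irradiation replicate 2 (0.132 CPM). GLS2, the mitochondrial glutaminase, reached at most 0.0896 CPM, and 77.1% of its exon bases lie over SPRYD4 on the opposite strand, so its few reads cannot be assigned with certainty.

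After irradiation of WT cells, TP53I3, CD82, PLK2, BTG2, PIDD1, CMBL and SPATA18 rose and BTG1 fell. On the log2(CPM + 0.5) scale, which understates the change of the low gene SPATA18, the rises ran from 6.53-fold for TP53I3 to 2.12-fold for CMBL. They were tested with limma on log2(CPM + 0.5) after TMM scaling, with Benjamini-Hochberg adjustment over 20668 genes, and a gene was called at an adjusted p under 0.05. Called higher were 7 of 32 members, against 0.968% of all genes tested, and called lower was 1, against 0.590% (1.56% in both directions together). SPATA18, 1 of these 7, is a description, since treated WT libraries took it past the filter. The median log2 change of the members was 0.89, against 0.00 over all genes. In 14 members both irradiated libraries lay above both solvent libraries (18.9% of all genes did so), and in 1, BTG1, both lay below (10.0% of all genes). Such orders of libraries, here and below, use deposited CPM without TMM scaling, which can change them. This limma test called no member in Mutant (0 also by edgeR, 1 by DESeq2; 9 at an unadjusted p under 0.05, against 13.1% of all genes; background of adjusted calls 0.0774%, of which 0.0677% higher and 0.00968% lower) or in Null (0 also by edgeR, 3 by DESeq2; 5 at an unadjusted p under 0.05, against 11.8% of all genes; background of adjusted calls 0.677%). With the replicate number as a block, more members were called in each line, as the last section gives. The absence of calls in Mutant and Null therefore depends on the test. Both irradiated libraries lay above both solvent libraries for 10 members in Mutant and below for 5 (22.3% and 17.6% of all genes), and for 6 and 6 in Null (23.1% and 8.83%). The median log2 change was 0.13 in Mutant and -0.08 in Null.

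**Figure D1:**
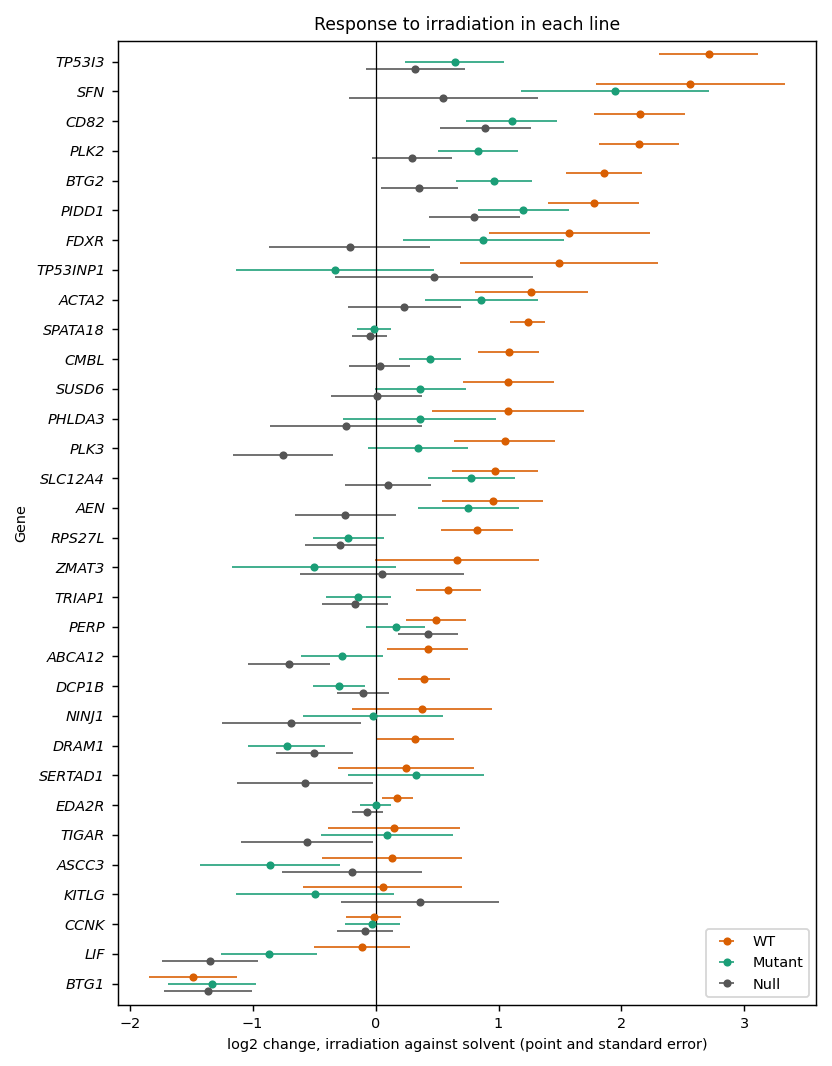
The log2 change after irradiation against solvent is drawn for each of the 32 tested members in WT (orange), Mutant (green) and Null (grey), with bars of 1 standard error. The WT points run from 2.71 for TP53I3 to -1.48 for BTG1; the BTG1 points of all 3 lines lie together.

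A fit that leaves out 1 library has a single library in that group, which is assumed to vary like the other groups. Leaving out 1 of the 4 WT libraries at a time, the log2 change ran from 2.44 to 2.97 for TP53I3 and from 0.985 to 1.49 for SPATA18. PLK2 lost its call without WT solvent replicate 2 (1.87 to 2.41 over the 4 fits), and BTG2 and CD82 lost theirs without WT solvent replicate 1 or WT irradiation replicate 2. CMBL, PIDD1 and BTG1 lost theirs without any 1 of the 4, edgeR called 4 members, and all 8 calls were lost when the 8 WT libraries were fitted alone. Without TMM scaling 9 members were called higher and 0 lower.

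The libraries differ in how log2 expression depends on gene GC content, and a second limma model carried that slope as a covariate. In that model 23 members were higher and 1 lower in WT (9.07% and 8.99% of all genes), 7 and 2 in Mutant (5.71% and 7.77%) and 4 and 9 in Null (9.09% and 10.9%). In WT it left 8 members uncalled, ABCA12, EDA2R, NINJ1, TIGAR, KITLG, CCNK, SERTAD1 and LIF, so members described below as not called by the main test were mostly called with the GC slope. Without WT irradiation replicate 1 the WT total of 24 became 16. The Mutant total of 9 became 2 without Mutant solvent replicate 2, and the Null total of 13 became 3 without Null solvent replicate 1.

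Among genes of the cell cycle, PLK2, a polo-like kinase of the stress response (chromosome 5, 58453982 to 58460260), was at 58.3 and 26.1 CPM in WT solvent and at 252 and 120 CPM after irradiation. Both irradiated libraries lay above both solvent libraries, and PLK2 rose by 2.14 ± 0.33 on the log2 scale (± standard error here and below, adjusted p = 0.00391). In Mutant it was at 38.4 and 15.7 CPM in solvent and 45.2 and 37.8 CPM after irradiation, with overlapping groups and a log2 change of 0.83 ± 0.33. In Null the values were 110 and 53.6 CPM, then 148 and 74.6 CPM, which overlap as well. Its paralog PLK3, another stress kinase, went from 91.9 and 142 CPM to 240 and 233 CPM in WT, a log2 change of 1.05 ± 0.41 that was not called (adjusted p = 0.271). In Null, PLK3 was lower in both irradiated libraries (130 and 134 CPM) than in both solvent libraries (191 and 210 CPM).

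SFN, the 14-3-3 sigma protein that holds cells before mitosis, was the most abundant member. It had 212 and 502 CPM in WT solvent and 1617 and 2288 CPM after irradiation. The groups do not overlap, but its solvent libraries lie far apart, and the log2 change of 2.56 ± 0.77 did not pass (adjusted p = 0.118); with the GC slope it was 1.99 ± 0.17 (adjusted p = 1.02e-07). Mutant libraries were at 172 and 350 CPM in solvent and 887 and 893 CPM after irradiation, without overlap either (log2 change 1.95 ± 0.77, adjusted p = 0.291). In Null the irradiated libraries, at 930 and 1334 CPM, overlapped those in solvent, at 498 and 934 CPM. SERTAD1, a regulator of CDK4 activity, changed by 0.25 ± 0.55 in WT (adjusted p = 0.921). CCNK, cyclin K of the transcription kinase complex, stayed between 15.4 and 24.4 CPM over all libraries (WT log2 change -0.02 ± 0.23, adjusted p = 0.992). Of its exon bases 59.5% lie over CCDC85C on the opposite strand, at a median of 124 CPM, and the counting strand is not given in the sources used here.

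The antiproliferative pair BTG2 and BTG1 moved in opposite directions in WT. BTG2, which slows entry into S phase and promotes mRNA decay (chromosome 1, 203305491 to 203309602), was at 27.1 and 22.1 CPM in WT solvent and 92.4 and 87.2 CPM after irradiation. It rose by 1.86 ± 0.31 (adjusted p = 0.00796). In Mutant its libraries were at 15.5 and 7.27 CPM, then 23.8 and 16.6 CPM, a log2 change of 0.96 ± 0.31 (adjusted p = 0.197). BTG1 (chromosome 12, 92140278 to 92145897) was at 86.2 and 59.0 CPM in WT solvent and 28.3 and 22.3 CPM after irradiation, and fell by 1.48 ± 0.36 (a log2 change of -1.48, adjusted p = 0.0486). Values of like size were seen in the other lines: Mutant went from 103 and 67.7 CPM to 33.6 and 28.4 CPM (-1.33 ± 0.36, adjusted p = 0.119) and Null from 101 and 61.0 CPM to 39.7 and 28.6 CPM (-1.36 ± 0.36, adjusted p = 0.0882). The irradiated libraries lay below both solvent libraries in each line, though neither change passed in Mutant or Null. The difference between the WT and Null changes was -0.12 ± 0.50 (adjusted p = 1).

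**Figure D2:**
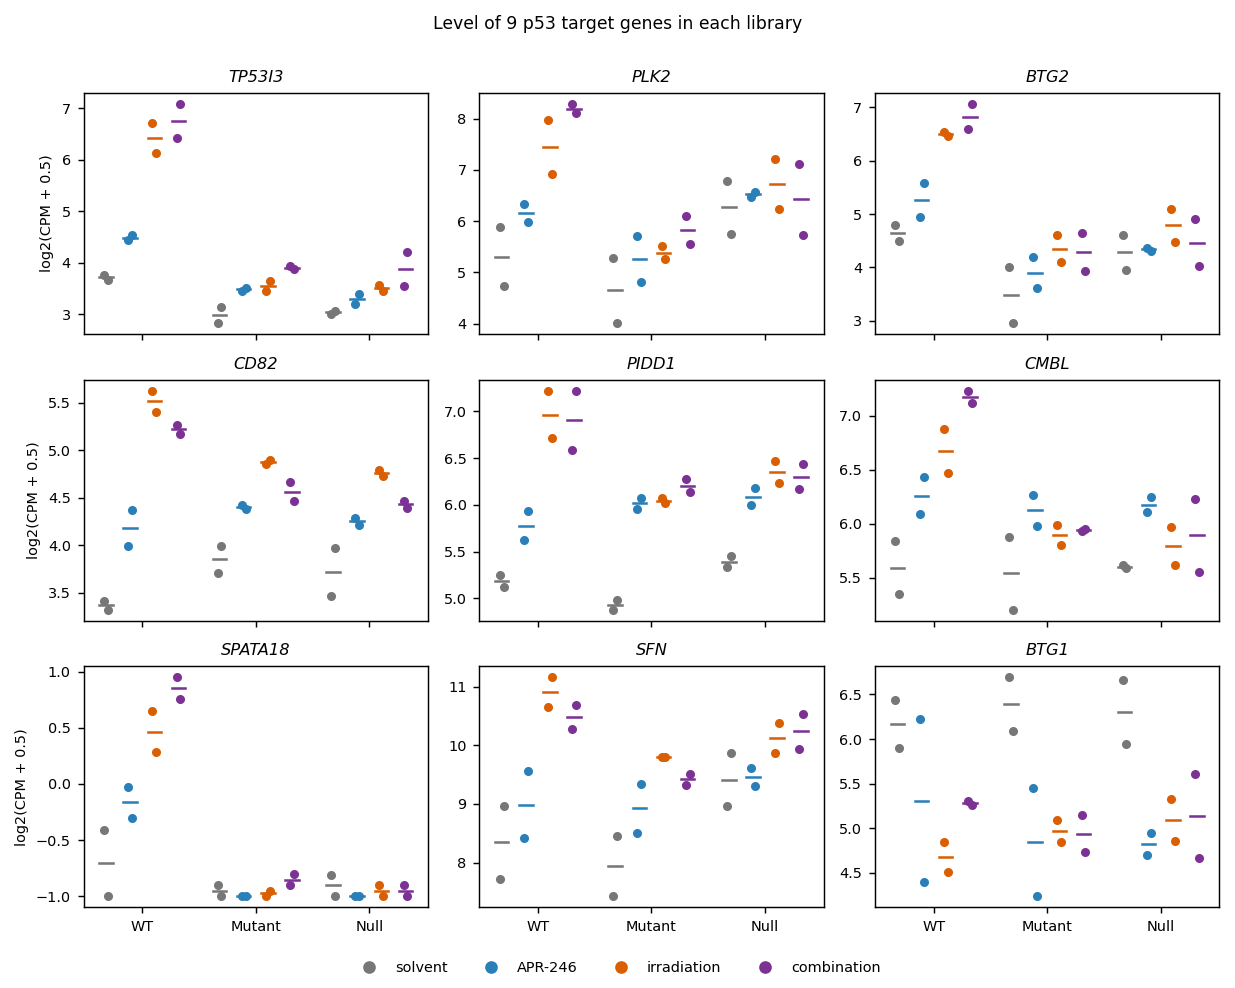
Each panel gives 1 gene; points are single libraries as log2(CPM + 0.5), bars are group means, and colours are the treatments within each line. TP53I3, PLK2, BTG2, CD82, PIDD1, CMBL, SPATA18 and SFN stand highest in irradiated or combination WT libraries, while BTG1 stands highest in solvent libraries, up to 103 CPM in Mutant.

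Of the genes tied to cell death, TP53I3, a quinone oxidoreductase that raises reactive oxygen (chromosome 2, 24077433 to 24085861), had the largest WT change of the tested members on the log2(CPM + 0.5) scale. It was at 13 and 12.3 CPM in WT solvent and 104 and 69.9 CPM after irradiation, and rose by 2.71 ± 0.41 (adjusted p = 0.00346). In Mutant it was at 6.63 and 8.31 CPM, then 10.4 and 12 CPM. In Null it was at 7.52 and 7.91 CPM, then 11.4 and 10.5 CPM. On deposited CPM the irradiated libraries lay above the solvent libraries in both of these lines too. After TMM scaling, as used in the main test, the Null groups overlapped. The limma log2 changes of 0.64 ± 0.41 in Mutant and 0.32 ± 0.41 in Null did not pass (adjusted p = 0.507 and 0.888).

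PIDD1, the death domain protein that assembles the caspase-2 platform (chromosome 11, 799179 to 809753), was at 37.7 and 34.5 CPM in WT solvent and 148 and 104 CPM after irradiation. It rose by 1.78 ± 0.37 (adjusted p = 0.025). The same order without overlap was seen in Mutant, from 29 and 31.2 CPM to 67.0 and 64.2 CPM (1.20 ± 0.37, adjusted p = 0.178), and in Null, from 39.8 and 43.3 CPM to 87.8 and 74.9 CPM (0.80 ± 0.37, adjusted p = 0.411). PIDD1 rose in WT (1.54), Mutant (0.84) and Null (0.71) in the model with the GC slope.

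The main limma test did not call the other death genes in WT. AEN, a nuclease that digests DNA in dying cells, went from 57.9 and 68.4 CPM to 123 and 121 CPM (0.95 ± 0.41, adjusted p = 0.345). In Mutant it went from 48.1 and 64.6 CPM to 90.6 and 86.5 CPM, again without overlap (0.75 ± 0.41, adjusted p = 0.447). In Null it stood at 130 and 119 CPM already in solvent and at 117 and 116 CPM after irradiation. PHLDA3, an inhibitor of AKT signalling, went from 57.3 and 103 CPM to 132 and 199 CPM (1.08 ± 0.62, adjusted p = 0.546). TP53INP1, a nuclear cofactor of p53 in death and autophagy, was at 15.9 and 4.16 CPM and then 43.9 and 13 CPM (1.50 ± 0.81, adjusted p = 0.502), so its groups overlapped. PERP, a desmosomal membrane protein, changed by 0.49 ± 0.24 (adjusted p = 0.439) and TRIAP1, a small inhibitor of apoptosis in mitochondria, by 0.59 ± 0.27 (adjusted p = 0.376). EDA2R, a receptor of the tumour necrosis factor family, was at 0.144 and 0 CPM in WT solvent and 0.258 and 0.0376 CPM after irradiation (0.17 ± 0.13, adjusted p = 0.676). It was at 0 in every Mutant library.

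Mitochondrial and metabolic members were led by SPATA18 and CMBL. SPATA18, a protein of mitochondrial quality control (chromosome 4, 52051331 to 52097292), had 14 and 0 reads in WT solvent (0.252 and 0 CPM) and 58 and 38 reads after irradiation (1.07 and 0.714 CPM). It rose by 1.24 ± 0.14 on the log2(CPM + 0.5) scale, which understates changes at such low levels (adjusted p = 0.000272), and the call was lost in edgeR and DESeq2. No Mutant or Null library held more than 4 of its reads. CMBL, a cytosolic hydrolase (chromosome 5, 10275875 to 10308026), was at 56.7 and 40.2 CPM in WT solvent and 117 and 88.1 CPM after irradiation, and rose by 1.08 ± 0.25 (adjusted p = 0.041). In Mutant its groups overlapped, at 58.1 and 36.3 CPM and then 62.8 and 55.2 CPM, and in Null it differed by 0.03 ± 0.25.

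FDXR, the ferredoxin reductase of mitochondrial electron transfer, went from 153 and 306 CPM to 599 and 695 CPM in WT. The groups do not overlap, but the solvent libraries lie far apart, and the change of 1.58 ± 0.65 was not called (adjusted p = 0.315). Under the GC slope FDXR rose by 1.09 ± 0.14 in WT (adjusted p = 1.87e-05) and was at 0.12 ± 0.14 in Mutant and -0.41 ± 0.14 in Null. TIGAR, a phosphatase that diverts glycolysis, was at 6.17 and 2.37 CPM in WT solvent and 6.81 and 2.71 CPM after irradiation (0.15 ± 0.54, adjusted p = 0.954). DRAM1, a lysosomal protein of autophagy, was at 34.0 and 16.2 CPM and then 41.8 and 20.7 CPM (0.32 ± 0.31, adjusted p = 0.788). In Mutant DRAM1 was lower in both irradiated libraries, 13.3 and 10.4 CPM against 31.8 and 13.8 CPM in solvent.

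The main limma test called no RNA-acting member after irradiation alone in WT. RPS27L, a paralog of the ribosomal protein RPS27, was at 53.2 and 21.1 CPM in WT solvent and 85.1 and 41.9 CPM after irradiation (0.82 ± 0.29, adjusted p = 0.2). RPS27 itself was at 376 and 269 CPM and then 239 and 197 CPM, so the paralogs did not move together, although reads of near-identical stretches could be shared between them. ZMAT3, an RNA-binding regulator of splicing and mRNA decay, was at 31.2 and 10.1 CPM and then 56.5 and 14.3 CPM (0.67 ± 0.67, adjusted p = 0.796). The distance between its replicates in every WT group but the combination was larger than the change. ASCC3, a helicase of ribosome rescue and alkylation repair, changed by 0.13 ± 0.57 (adjusted p = 0.963) and DCP1B, of the mRNA decapping complex, by 0.39 ± 0.21 (adjusted p = 0.496).

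At the cell surface, CD82, a tetraspanin that restrains motility (chromosome 11, 44564427 to 44620363), was at 10.2 and 9.51 CPM in WT solvent and 49.0 and 41.8 CPM after irradiation. It rose by 2.15 ± 0.37 (adjusted p = 0.00937). Both irradiated libraries also lay above both solvent libraries in Mutant, with 12.6 and 15.5 CPM and then 28.4 and 29.3 CPM (1.11 ± 0.37, adjusted p = 0.215), and in Null, with 10.5 and 15.1 CPM and then 27.2 and 26.0 CPM (0.89 ± 0.37, adjusted p = 0.331). CD82 likewise rose in WT (1.91), Mutant (0.73) and Null (0.80) once the GC slope was included.

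The remaining surface, secreted and structural members were not called in WT by the main limma test. SLC12A4, a potassium-chloride cotransporter, went from 72.0 and 79.8 CPM to 158 and 141 CPM (0.97 ± 0.35, adjusted p = 0.222) and SUSD6, a sushi domain membrane protein, from 15.5 and 5.61 CPM to 29.2 and 14.0 CPM (1.08 ± 0.37, adjusted p = 0.183). ACTA2, the smooth muscle actin, went from 3.82 and 5.72 CPM to 12.8 and 11.3 CPM (1.27 ± 0.46, adjusted p = 0.223). The other smooth muscle markers (MYH11, DES, CNN1 and TAGLN) summed to 9.59 to 14.7 CPM in WT solvent and 14.6 to 19.6 CPM in irradiated WT libraries; their part in the ACTA2 values was not tested. ACTA2 also shares 12.8% of its exon bases with FAS on the opposite strand. NINJ1, which ruptures the membrane of dying cells, changed by 0.37 ± 0.57 (adjusted p = 0.88), ABCA12, a lipid transporter, by 0.42 ± 0.33 (adjusted p = 0.713) and KITLG, the ligand of the KIT receptor, by 0.06 ± 0.64 (adjusted p = 0.988). LIF, a cytokine of the interleukin-6 family, was at 201 and 120 CPM in WT solvent and 186 and 110 CPM after irradiation (-0.11 ± 0.39, adjusted p = 0.951). In Mutant LIF was lower in both irradiated libraries, 127 and 95.5 CPM against 267 and 174 CPM (-0.87 ± 0.39, adjusted p = 0.358). In Null it was lower in both as well, 66.4 and 37.3 CPM against 147 and 88.3 CPM (-1.35 ± 0.39, adjusted p = 0.123).

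The response of WT was set against those of the other lines by testing the difference of the log2 changes. SPATA18 was the only member past the threshold in limma, in WT minus Null (1.29 ± 0.20, adjusted p = 0.0322, background 0.0290%) and in WT minus Mutant (1.25 ± 0.20, adjusted p = 0.0315, background 0.0387%). SPATA18 had to differ between lines to be tested, since only WT libraries took it past the filter, so these values describe it and support no difference between lines. They also rest on few reads: the calls were lost in edgeR, in DESeq2, without TMM scaling, with a pseudocount of 0.1 CPM, in fits of the compared lines alone and without 6 of the 8 libraries in turn. The difference was above 0 for 30 of 32 members in each of the 2 contrasts, which share the WT libraries, against 50.1% of all genes for WT minus Null and 53.6% for WT minus Mutant. TP53I3, the member with the largest WT change, differed by 2.38 ± 0.57 between WT and Null (adjusted p = 0.446). PLK2 differed by 1.85 ± 0.46 (adjusted p = 0.516), so neither difference passed.

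Under the GC slope the WT response exceeded that of Null for 13 members (0.823% of all genes): TP53I3, PLK2, PLK3, SFN, FDXR, PHLDA3, SPATA18, CD82, AEN, RPS27L, SUSD6, CMBL and DRAM1. That total was 7 without WT irradiation replicate 1. It exceeded that of Mutant for 7 members (0.484%): TP53I3, PLK2, SPATA18, DRAM1, CD82, PHLDA3 and FDXR, and for 2 without Mutant solvent replicate 2. BTG2 and PIDD1 were in neither set. Between Mutant and Null no member was called (0 by limma, edgeR and DESeq2 and with the GC slope; 0 at an unadjusted p under 0.05, against 1.99% of all genes; background 0%). In the main fit the Mutant minus Null difference was above 0 for 25 of 32 members, against 47.2% of all genes, with a median of 0.38 against -0.03. With the GC slope the median of the members was 0.16.

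For APR-246 alone the main limma test called no member in any line, while DESeq2 and the GC slope called some in Mutant and Null. In WT 4 members had an unadjusted p under 0.05, against 2.69% of all genes, with 0 adjusted calls by limma, edgeR and DESeq2 (background 0%). In 9 members, TP53I3, PLK2, BTG2, SPATA18, AEN, CMBL, PIDD1, PERP and CD82, both APR-246 libraries lay above both solvent libraries (11.2% of all genes), and in 0 members both lay below (4.23%). That order is of deposited CPM, and after the TMM scaling of the main test the groups of BTG2, AEN and PIDD1 overlapped. TP53I3 was at 21.2 and 22.6 CPM (log2 change 0.66 ± 0.41), PIDD1 at 48.7 and 60.5 CPM (0.47 ± 0.37) and CD82 at 15.4 and 20.3 CPM (0.71 ± 0.37), each below every irradiated WT library. The libraries of this group differ: BTG1 was at 74.0 CPM in replicate 1, within its solvent range, and at 20.6 CPM in replicate 2. Without replicate 1 limma called 1 member, and 10 with the GC slope in place of 0.

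In Mutant cells 0 members were called by limma and edgeR and 1 by DESeq2 (background 0%; 4 at an unadjusted p under 0.05, against 7.34% of all genes), and the median log2 change was -0.02. Both treated libraries lay above both solvent libraries for 6 members and below for 3 (14.0% and 9.27% of all genes). PIDD1 had the highest value, with 29 and 31.2 CPM in solvent and 61.6 and 67.1 CPM under APR-246 (1.14 ± 0.37, adjusted p = 0.465). TP53I3 was at 10.4 and 11.0 CPM, against 6.63 and 8.31 CPM in solvent (0.55 ± 0.41, adjusted p = 0.865). With the GC slope PIDD1, SFN, PLK2 and CMBL were higher and BTG1, NINJ1 and SERTAD1 lower (3.31% and 3.43% of all genes); 0 of these calls were left without Mutant solvent replicate 2.

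In Null, APR-246 gave 0 calls by limma and edgeR and 1 by DESeq2 (background 0.131%, of which 0.102% lower; 5 at an unadjusted p under 0.05, against 8.69% of all genes) with a median of -0.14. Here 10 members had both treated libraries below both solvent libraries (11.7% of all genes), among them BTG1 (25.6 and 30.3 CPM), PLK3 (109 and 69.6 CPM) and LIF (74.4 and 47.2 CPM). In 7 members, TP53I3, KITLG, CMBL, PIDD1, PERP, CD82 and CCNK, both treated libraries lay above both (22.8% of all genes). After TMM scaling the groups of TP53I3 overlapped. With the GC slope 2 members were higher, PERP and PIDD1, and 9 lower (6.85% and 8.22% of all genes), a total of 11 that became 5 without Null solvent replicate 1.

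**Figure D3:**
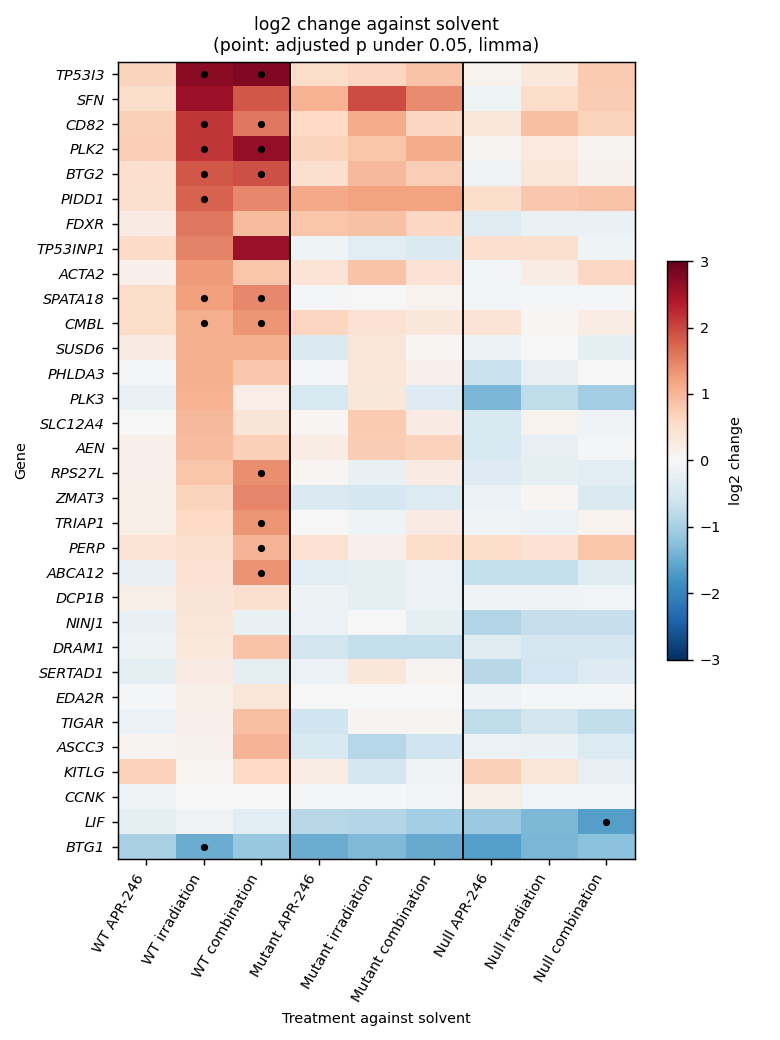
The colour scale gives the log2 change against the solvent group of the same line, from red (higher) to blue (lower), and a point marks an adjusted p under 0.05 in limma. Points fall in the irradiation and combination columns of WT, with 1 elsewhere, LIF in the Null combination.

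The combination raised 10 members in WT cells and lowered 0 (background 1.30% and 0.929%, or 2.23% together), with a median log2 change of 0.98. TP53I3 reached 84.8 and 135 CPM (2.77 ± 0.41, adjusted p = 0.00211), PLK2 312 and 274 CPM (2.63 ± 0.33, adjusted p = 0.000519) and BTG2 96.0 and 133 CPM (1.92 ± 0.31, adjusted p = 0.00429). CD82 (1.59 ± 0.37, adjusted p = 0.0321), SPATA18 (1.44 ± 0.14, adjusted p = 7.76e-05) and CMBL (1.32 ± 0.25, adjusted p = 0.00978) passed as they did after irradiation alone. The SPATA18 value is again a description. PIDD1 came to 95.8 and 149 CPM and did not pass (1.45 ± 0.37, adjusted p = 0.0554). TP53INP1 had its highest levels here, 63.3 and 61.6 CPM against 15.9 and 4.16 CPM in solvent, without a call (2.60 ± 0.81, adjusted p = 0.116).

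RPS27L, TRIAP1, ABCA12 and PERP passed the main limma test in the combination and not after irradiation alone. In the model with the GC slope, RPS27L, TRIAP1 and PERP were called after irradiation alone, and ABCA12 was not. RPS27L reached 112 and 102 CPM (1.39 ± 0.29, adjusted p = 0.0159) and TRIAP1 64.0 and 74.4 CPM (1.32 ± 0.27, adjusted p = 0.0135). ABCA12, at 3.68 and 1.13 CPM in WT solvent, reached 6.2 and 8.4 CPM (1.35 ± 0.33, adjusted p = 0.0448) and PERP, at 123 and 81.3 CPM in solvent, 245 and 243 CPM (1.02 ± 0.24, adjusted p = 0.0348). The ABCA12 call was lost in edgeR, in DESeq2, with a pseudocount of 0.1 CPM and without a filter. PERP lost its call in edgeR, and all 4 genes lost theirs without TMM scaling and in the fit of WT alone. The direct comparison of the combination with irradiation did not show these or any other member to differ in WT (0 by limma, edgeR and DESeq2 and with the GC slope, where 1 was called without WT combination replicate 1; 3 at an unadjusted p under 0.05, against 4.10% of all genes; background 0%). For these 4 genes both combination libraries still lay above both irradiated libraries, as in 13 members altogether (27.2% of all genes).

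In 26 members both combination libraries lay above both WT solvent libraries (26.9% of all genes), and with the GC slope 23 were higher (11.2%) and 1 lower (10.5%). With 1 of the 4 libraries left out at a time, the log2 change ran from 2.37 to 2.88 for PLK2 and from 1.19 to 1.70 for SPATA18. BTG2 and TP53I3 lost their calls without WT combination replicate 2. RPS27L, TRIAP1 and ABCA12 kept theirs only without WT solvent replicate 1, CD82, CMBL and PERP lost theirs without any 1 of the 4, and edgeR called 6.

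In Mutant the main limma test called no member in the combination (background 0.348%), edgeR also 0 and DESeq2 2. At an unadjusted p under 0.05 there were 7, against 11.8% of all genes. With the GC slope 6 members were higher and 3 lower (7.69% and 8.81% of all genes). In Null LIF was the only member called by the main limma test, while DESeq2 called further ones. There 5 members had an unadjusted p under 0.05, against 15.1% of all genes. With the GC slope 4 were higher and 6 lower (10.9% and 13.7% of all genes). LIF fell from 147 and 88.3 CPM in Null solvent to 51.3 and 27.5 CPM (-1.65 ± 0.39, limma adjusted p = 0.0425, background 0.876% of genes lower). That call was lost without any 1 of the 4 libraries and in edgeR. Neither line showed a member that differed between the combination and irradiation (0 by limma, edgeR and DESeq2 and at an unadjusted p under 0.05, background 0% in both).

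Cells given APR-246 before irradiation offer another view of the radiation response, since the combination against APR-246 uses no library of the irradiation against solvent comparison. In WT 3 members rose (background 0.377%): PLK2 (1.88 ± 0.33, adjusted p = 0.0155), TP53I3 (2.11 ± 0.41, adjusted p = 0.0285) and SPATA18 (0.89 ± 0.14, adjusted p = 0.00814). PLK2 went from 80.6 and 62.5 CPM under APR-246 to 312 and 274 CPM in the combination. In 27 members both combination libraries lay above both APR-246 libraries (25.0% of all genes). In edgeR 0 members were called and in DESeq2 5; TP53I3 and PLK2 lost their calls without any 1 of the 4 libraries, and SPATA18 kept its call only without WT APR-246 replicate 2. The GC slope gave 23 higher members (4.75%), and 15 without WT combination replicate 2.

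In WT 27 of 32 members were above 0 in both views and 2 below 0 in both, with a correlation over the members of r = 0.67 (n = 32 genes that share libraries within each view). In Mutant 15 were above 0 and 9 below 0 in both (r = 0.44), and in Null 9 and 4 (r = 0.07). BTG1 did not repeat: it was at -1.48 ± 0.36 without and -0.18 ± 0.36 with APR-246 in WT, where the APR-246 libraries stood at 74.0 and 20.6 CPM. In the APR-246-treated cells no member was called in Mutant or Null (0 by limma, edgeR and DESeq2 and at an unadjusted p under 0.05; background 0% and 0.0242%). The difference between WT and Null there was not called for any member (0 by limma, edgeR and DESeq2, background 0%; 10 at an unadjusted p under 0.05, against 3.32% of all genes) and was called for 4, TP53I3, PLK2, SFN and FDXR, with the GC slope (0.0871%). That number was 2 without WT combination replicate 2 and 13 without WT APR-246 replicate 2.

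**Figure D4:**
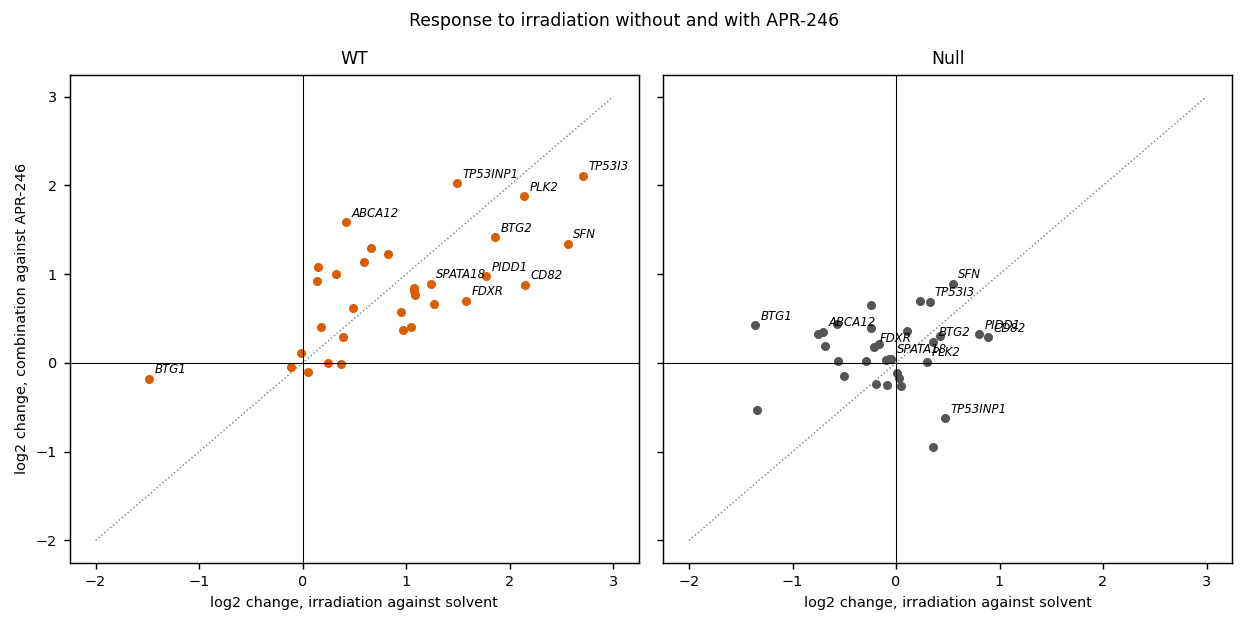
Each point is 1 member, with its log2 change after irradiation in solvent-treated cells on the horizontal axis and in APR-246-treated cells on the vertical axis; the dotted line marks equal changes. In WT 27 of 32 points lie above 0 on both axes and in Null 9 do.

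The lines also differed without treatment. ABCA12 was higher in WT than in Null solvent, 3.68 and 1.13 CPM against 0.755 and 0.208 CPM (1.45 ± 0.33, adjusted p = 0.0494, background 0.624%). That call was lost in edgeR and held, with 1 library left out, only without WT solvent replicate 2. Without TMM scaling 0 members were called higher and 1 lower. In every Mutant library ABCA12 stayed at or below 0.195 CPM. PLK2 was lower in Mutant than in Null solvent, 38.4 and 15.7 CPM against 110 and 53.6 CPM (-1.80 ± 0.33, adjusted p = 0.0055, background 1.29%). It lost that call without Mutant solvent replicate 2 or Null solvent replicate 1.

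After irradiation 6 members were higher in WT than in Null (background 1.22%) and 0 lower. Among them SPATA18, tested through WT libraries only, is a description. The members were TP53I3 (2.97 ± 0.41, adjusted p = 0.000599), ABCA12 (2.58 ± 0.33, adjusted p = 0.000339), BTG2 (1.76 ± 0.31, adjusted p = 0.00546), DRAM1 (1.52 ± 0.31, adjusted p = 0.0166), RPS27L (1.47 ± 0.29, adjusted p = 0.0123) and SPATA18 (1.45 ± 0.14, adjusted p = 1.88e-05). In 22 members both WT libraries lay above both Null libraries (11.4% of all genes). PLK2 was not one of them, since Null held 148 and 74.6 CPM of it against 252 and 120 CPM in WT. Under the GC slope 24 members were higher in WT (7.05%). The calls of TP53I3, ABCA12 and SPATA18 held without any 1 of the 4 libraries, while BTG2 lost its call without WT or Null irradiation replicate 2, and DRAM1 and RPS27L without WT irradiation replicate 1 or Null irradiation replicate 2.

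For the list of 27 other p53 pathway genes, of which 26 were tested, 2 were called higher after irradiation in WT, CDKN1A (2.02 ± 0.40, adjusted p = 0.019) and POLH, a polymerase that copies past DNA damage (1.26 ± 0.26, adjusted p = 0.0227), and 0 lower, with a median log2 change of 0.34. Over all genes 0.968% were called higher and 0.590% lower there, with a median of 0.00. The combination raised 5 of the listed genes in WT, against 1.30% of all genes. In Mutant and Null 0 were called under any treatment against solvent. The share of all genes called in Mutant was 0.0774% for irradiation, 0% for APR-246 and 0.348% for the combination. In Null it was 0.677%, 0.131% and 1.95%. With shares this small, 0 calls among 26 genes say little about these genes.

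Replicates of the members differed along GC content. Averaged over the 12 groups, TP53INP1 (39.6% GC) was higher by 1.06 on the log2 scale in replicate 1 than in replicate 2, ZMAT3 (39.5%) by 0.92 and KITLG (37.3%) by 0.77. SFN (62.8%) differed by -0.98, PHLDA3 (59.6%) by -0.86 and FDXR (61.8%) by -0.83, so these were higher in replicate 2. Over the 32 members this difference had r = -0.75 with GC content, given as a description of genes that share libraries. KITLG, for example, was at 320 and 95.8 CPM in WT solvent and 345 and 73.0 CPM in Mutant solvent. Among called members BTG2 (50.3% GC), PERP (41.2%) and TRIAP1 (43.6%) differed little, by -0.02, -0.02 and 0.05, whereas TP53I3 differed by -0.50, PIDD1 by -0.45, CD82 by -0.41 and PLK2 by 0.36. The labels name no batch that goes with the replicate number.

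**Figure D5:**
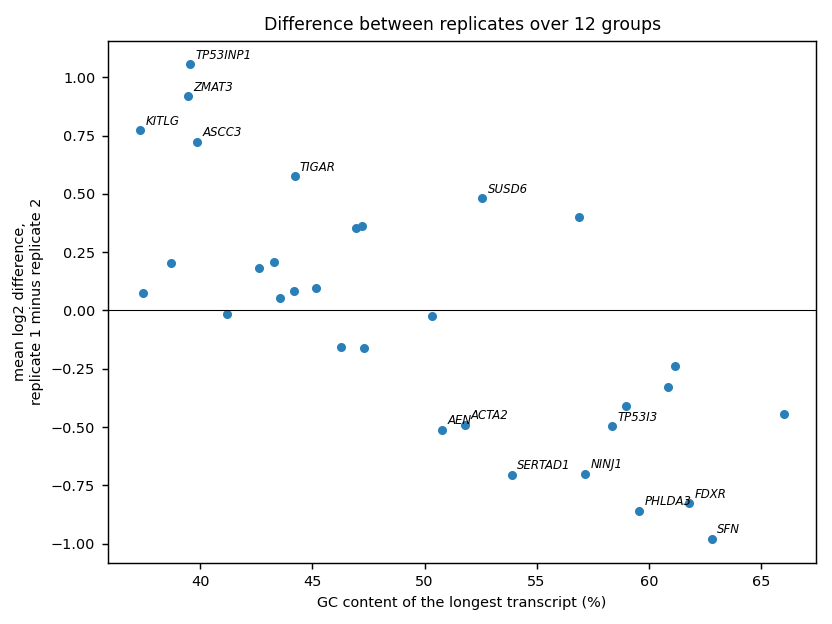
The mean log2 difference between replicate 1 and replicate 2 over the 12 groups is plotted against the GC content of each member's longest transcript. Points fall from 1.06 for TP53INP1 to -0.98 for SFN as GC content rises.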

How the data were processed

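Per the labels' protocols, RNA was extracted with TRIzol and enriched for mRNA on oligo(dT), and sequencing on a BGIseq500 gave 100-base paired ends. Per the submitters' processing notes, FastQC, STAR and featureCounts of Subread were used on GRCh38.p13; versions, annotation release and counting strand are not given in the sources used here. The authors deposited CPM for 60675 gene ids in each of 24 libraries. Whole reads could be recovered from the CPM steps: within a tolerance of 0.05 reads, 100% came out whole. Even numbers made up 74.5% to 81.5% of values of 2 to 9 reads, so mates may have been counted singly. Ids were matched to symbols for 60419 and to GENCODE 29 for 58444, which gave coordinates (GRCh38), exon length and GC content.

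The main test was robust limma-trend (version 3.58.1, R 4.3.3) on log2(CPM + 0.5), the CPM being TMM-scaled first, with a coefficient for each of 12 groups and 12 residual degrees of freedom, after filterByExpr with a count minimum of 10 (20668 genes). Printed CPM, and the order of libraries within each comparison, are as deposited, without TMM scaling. The GC slope of a library is that of its centred log2 values on gene GC content (98.3% of tested genes have a value). Alternatives were edgeR 4.0.16 (quasi-likelihood) and DESeq2 1.42.0 on recovered reads, no TMM scaling, a pseudocount of 0.1 CPM, no filter, the compared lines alone, the GC slope, a replicate block, both together, and each library left out; the fits that leave out a library with the GC slope were added after seeing the data. The code was tested on simulated data. A further check gene is not reported here. All 35 members are named, and each of the 32 tested has its full statistics where called and once for irradiation of WT. The members and lists were chosen with earlier results of these data known.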

Additional observations from a re-analysis of the deposited data

Results flagged for a closer look

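The irradiation response of SPATA18 passed the threshold for a difference between lines, but SPATA18 passed the filter on low reads through WT libraries only, so it had to differ and its values are given as a description. The response was 1.29 higher on the log2(CPM + 0.5) scale in WT than in Null (1.29 ± 0.20, adjusted p = 0.0322) and 1.25 higher in WT than in Mutant (1.25 ± 0.20, adjusted p = 0.0315), by limma's test of the difference itself. The WT libraries held 14 and 0 reads in solvent and 58 and 38 after irradiation, the Mutant libraries 2 and 0, then 0 and 1, and the Null libraries 4 and 0, then 2 and 0. Both irradiated WT libraries lay above both solvent libraries. The calls were lost in edgeR and DESeq2, without TMM scaling, with a pseudocount of 0.1 CPM and in fits of the compared lines alone. Over the alternative limma, edgeR and DESeq2 fits with every library kept, the adjusted p ran from 0.00147 to 1 for WT minus Null. For WT minus Mutant it ran from 0.00518 to 1. With 1 library left out at a time, the log2 difference ran from 1.03 to 1.54 for WT minus Null. For WT minus Mutant it ran from 0.997 to 1.50.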

How the results depend on the processing

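Counts of members called, in either direction, depended on the setting for most comparisons and were 0 under every setting below for the combination against irradiation in each line, the combination against APR-246 in Mutant and Null, and the Mutant minus Null irradiation response. In the order irradiation against solvent in WT, Mutant and Null, APR-246 against solvent in Mutant and Null, combination against solvent in WT, Mutant and Null, combination against APR-246 in WT, irradiation response of WT minus Null and of WT minus Mutant, that of WT minus Null in APR-246-treated cells, WT against Null in solvent, Mutant against Null in solvent, and WT against Null after irradiation, the main counts were 8, 0, 0, 0, 0, 10, 0, 1, 3, 1, 1, 0, 1, 1 and 6. With the GC slope they were 24, 9, 13, 7, 11, 24, 9, 10, 23, 13, 7, 4, 9, 10 and 24. The share of all genes called also moved with the setting. For irradiation in WT it was 1.56% in the main fit, and 9.07% higher and 8.99% lower with the GC slope. For the settings that follow, the shares of all genes are not given. Their counts therefore show how the calls depend on the setting, not an excess over all genes. The labels do not say that equal replicate numbers mark a shared culture or day. Deviations of same-numbered libraries had r over 0.1 in 55 of 66 pairs of groups (-0.56 to 0.90, median 0.63). All the other pairs included Null APR-246, with r from -0.56 to -0.14, and the 55 pairs without that group ran from 0.38 to 0.90. With the replicate number as a block the counts were 17, 9, 4, 2, 3, 17, 6, 5, 10, 3, 2, 1, 3, 7 and 17, and with block and GC slope 24, 8, 13, 10, 11, 23, 12, 11, 24, 14, 8, 3, 9, 10 and 24. With DESeq2 they were 8, 1, 3, 1, 1, 11, 2, 3, 5, 1, 0, 0, 2, 5 and 11, with edgeR 4, 0, 0, 0, 0, 6, 0, 0, 0, 0, 0, 0, 0, 1 and 5, without TMM scaling 9, 0, 1, 0, 0, 9, 1, 0, 3, 0, 0, 0, 1, 2 and 5, in fits of the compared lines alone 0 but for 1 in Mutant against Null in solvent and 5 in WT against Null after irradiation, with a pseudocount of 0.1 CPM 7, 0, 0, 0, 0, 9, 0, 1, 2, 0, 0, 0, 0, 1 and 6, and without a filter 6, 0, 0, 0, 0, 8, 0, 0, 2, 1, 1, 0, 0, 1 and 6. Leaving out 1 library at a time gave 3 to 5 for irradiation in WT, 2 to 7 for the combination in WT, 0 to 2 for the combination against APR-246 in WT, 0 to 1 for APR-246 in WT, for WT minus Null and WT minus Mutant, and for WT and Mutant against Null in solvent, 3 to 6 for WT against Null after irradiation, and 0 elsewhere. No called member changed direction under any setting. Each group has 2 libraries, and log2 differences carried standard errors with a median of 0.32, which limits what the main test could call.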
